A study of Homo sapiens with 4 samples.

Results

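Peaks of N7-methylguanosine (m7G) enrichment in the 3' untranslated regions (3'UTRs) of mRNAs are described here in HL60 and HL60/MX2 cells. Each listed peak was assigned to whichever protein-coding gene its exons covered most on that strand. It was counted as a 3'UTR peak where most of its overlap with that gene's longest coding transcript lay more than 100 nt past the stop codon. The rule found 1382 of 8070 listed peaks in HL60 and 1202 of 8122 in HL60/MX2, or 2584 of 16192 in all. No score, level or comparison entered the rule.

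HL60 is a human promyelocytic cell line from an acute myeloid leukemia (AML), labelled as wild type in its genotype field. HL60/MX2 is a derivative selected for resistance to mitoxantrone, a drug that poisons DNA topoisomerase II, and is labelled as drug-resistant. Both came from the American Type Culture Collection and were collected in logarithmic growth in the same serum-containing medium, with no drug in the labels. The series holds 4 libraries, an immunoprecipitated and an input library of each line, and peaks were listed for the immunoprecipitated ones. Poly(A)+ RNA was decapped enzymatically, fragmented and enriched with an m7G antibody, so the listed peaks were meant to mark m7G inside the mRNA and not the cap. With 1 library per line no difference between HL60 and HL60/MX2 could be tested, and an expression level, against which the labelled cell type could be checked, was not analysed here.

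The 3'UTR is the stretch of an mRNA between the stop codon and the poly(A) tail. It holds the sites through which microRNAs and RNA-binding proteins such as the Pumilio and AU-rich element binding proteins set the stability, translation and location of the mRNA, and near its end the AAUAAA hexamer that directs cleavage and polyadenylation. m7G is best known as the cap of mRNAs, and it also occurs inside tRNAs, rRNAs and, at lower levels, mRNAs. Many genes, among them those of neurons, have long 3'UTRs and use several cleavage sites, so that the annotated end is not the end of every molecule.

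Short stretches of 3'UTRs are printed as examples from the peaks. The first set comes from peaks listed in HL60 and HL60/MX2 at the same place, since such a peak was listed for each line. Of the 10 longest overlaps among 3'UTR peaks, 6 held GGAAA or GGAAG inside the overlap. These overlaps were 259 to 395 bp long. Of all 3'UTR windows, 25.9% of those of 100 nt and 36.2% of those of 150 nt held GGAAA or GGAAG. Windows as long as the overlaps were not counted, so the 6 have no like background. The match nearest the centre of each overlap is printed 5′ to 3′ on the strand of the gene, with that match in capitals. The stretches lie in hg19 at chr6:24428357-24428386 (GPLD1), chr9:131583613-131583642 (SPOUT1), chr1:154171706-154171735 (CFAP141), chr20:23062810-23062839 (CD93), chr1:168050729-168050758 (GPR161) and chr9:91620986-91621015 (SHC3), all on the minus strand.
GPLD1: gaaactgagggaGGAAAaatagtacagagt
SPOUT1: ggacctgcatggGGAAGgcgtgagagctcg
CFAP141: tgccgctatttgGGAAAcaatctatgaaac
CD93: taaaggggcaggGGAAGtgaaaggaaagat
GPR161: gaggaaatacttGGAAAgcatgcagcacaa
SHC3: taattggttattGGAAAatgtgcctttatt

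The second set comes from peaks that cover the annotated end of the transcript. The polyadenylation hexamer AATAAA is in capitals. They lie in hg19 at chr19:48700845-48700874 (ZSWIM9), chr10:102897513-102897542 (TLX1) and chr14:77583593-77583622 (CIPC) in HL60/MX2 peaks, and at chr11:36253652-36253681 (LDLRAD3) and chr12:88593629-88593658 (TMTC3) in HL60 peaks, all on the plus strand. Only peaks with AATAAA near the transcript end were taken for this set. Its presence in every stretch was set by that choice and says nothing of how often such peaks hold it. Among the peaks with AATAAA, CIPC, LDLRAD3 and TMTC3 were chosen for high scores after these were seen. Some peaks near a transcript end with higher scores are not printed.
ZSWIM9: cttcaggattggAATAAAacaatcttattt
TLX1: gtgaaaaaaataAATAAAagcctccggatc
CIPC: atgtcagagaaaAATAAAagtcacttactt
LDLRAD3: tttatactttctAATAAAtttgcagtttca
TMTC3: gtttctgccttaAATAAAataaccctcaaa

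3'UTR peaks made up 21.0% (95% exact binomial interval 20.02 to 22.0) of the 6583 HL60 peaks that could be placed on a coding transcript, and 18.2% (17.3 to 19.1) of the 6612 in HL60/MX2. The same regions held 41.5% and 41.1% of the length of the transcripts that carried peaks. By number of listed peaks, the 3'UTR was therefore sparse for its length in the list of HL60 and in that of HL60/MX2. A number of peaks does not measure the length they cover, since CDS peaks were shorter (median 100 bp against 250 and 244 bp). A further 351 HL60 and 324 HL60/MX2 peaks, in a 3'UTR of another transcript of their gene, were not counted. Per megabase (Mb) of annotated 3'UTR over all 17704 genes with a 3'UTR over 100 nt, there were 47.1 peaks (exact Poisson interval 44.7 to 49.7) in HL60 and 41.0 (38.7 to 43.4) in HL60/MX2. Coding sequence (CDS) held 139 peaks per Mb (135 to 143) and 130 (126 to 134). These intervals and all others cover counting error only and say nothing of the spread between cultures.

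A 3'UTR peak was longer than a CDS peak. The median length was 250 bp (246 to 255) in HL60 and 244 bp (239 to 248) in HL60/MX2, against 100 bp for CDS peaks in each list. Of the CDS peaks, 89.3% and 88.0% started or ended exactly at an end of an exon of the transcript, against 8.97% and 8.57% of the 3'UTR peaks. A 3'UTR mostly lies in a single long exon, and its peaks seldom stopped at an exon end. Of the 3'UTR peaks, 11.9% in HL60 were 500 bp or longer against 8.15% for HL60/MX2, and 3.47% and 2.58% were shorter than 50 bp.

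The genes that carried a 3'UTR peak had long 3'UTRs. Their median 3'UTR length was 2600 nt (2467 to 2768; 1231 genes) in HL60 and 2598 nt (2437 to 2793; 1105 genes) in HL60/MX2, against 1064 nt (1035 to 1094) over all 17704 genes. Of genes with a 3'UTR over 4000 nt, 19.1% (HL60) and 17.3% (HL60/MX2) carried such a peak, while 1.70% and 1.25% did among genes with 101 to 500 nt. A long 3'UTR offers more length in which a peak can fall. Per Mb of 3'UTR the order was the opposite.

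**Figure D1:**
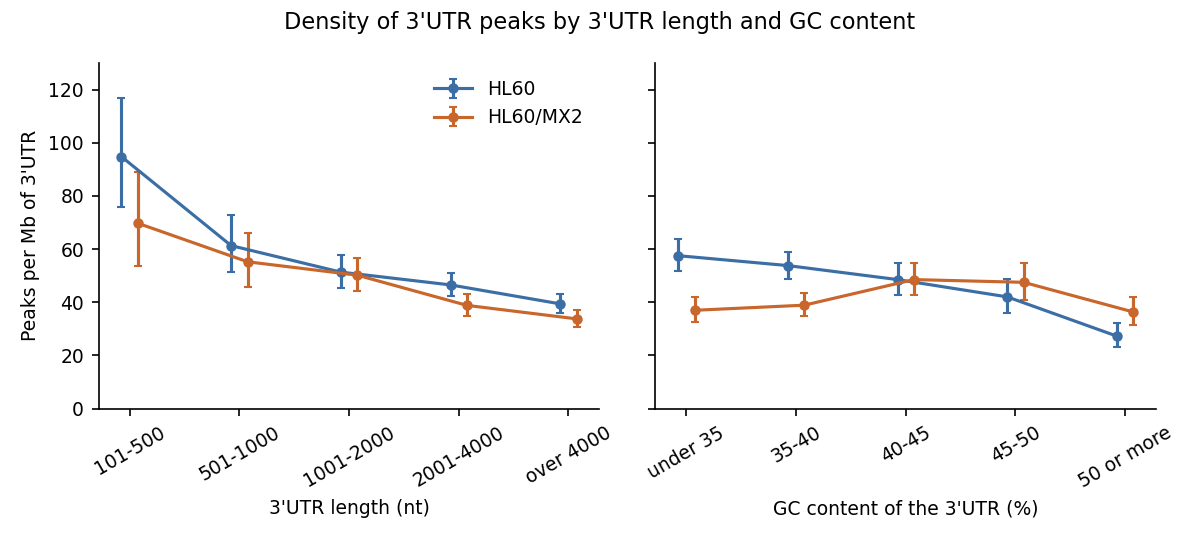
Peaks per Mb of 3'UTR past the first 100 nt, by the length of the 3'UTR (left, nt) and by its GC content (right, %), with exact Poisson 95% intervals as bars, in HL60 (blue) and HL60/MX2 (orange). Density fell with 3'UTR length in HL60 and HL60/MX2, while with GC content it fell in HL60 and was highest at 40 to 50% in HL60/MX2.

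In HL60 the density fell from 94.8 peaks per Mb (75.9 to 117) in 3'UTRs of 101 to 500 nt to 61.3 (51.3 to 72.8) at 501 to 1000 nt, 51.3 (45.4 to 57.9) at 1001 to 2000 nt, 46.5 (42.3 to 51.1) at 2001 to 4000 nt and 39.4 (35.9 to 43.2) over 4000 nt. In HL60/MX2 it fell from 69.7 (53.7 to 89.0) to 55.2, 50.2, 38.8 and 33.8 (30.5 to 37.3) over the same classes. The order of the classes was the same in the lists of HL60 and HL60/MX2. A peak that reaches into the first 100 nt past the stop codon was counted whole, while that length was left out of the Mb.

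The lists differed in the GC content of the 3'UTRs that carried peaks. In HL60 the density was 57.5 peaks per Mb (51.8 to 63.7) in 3'UTRs with a GC content under 35% and 27.3 (23.0 to 32.0) at 50% or more. In HL60/MX2 the same classes held 37.0 (32.4 to 42.0) and 36.3 (31.4 to 41.8) peaks per Mb, and the classes between 40 and 50% held 48.5 (42.9 to 54.7) and 47.5 (41.0 to 54.7). The intervals of HL60 and HL60/MX2 did not overlap under 35%, nor from 35 to 40%, where the values were 53.8 (48.9 to 59.1) and 38.9 (34.7 to 43.4). At 50% or more they overlapped between 31.4 and 32.0. With the last 20% of each 3'UTR left out, peaks and length alike, the values under 35% were 53.1 (47.0 to 59.9) in HL60 and 36.9 (31.8 to 42.6) in HL60/MX2.

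CDS peaks differed between the lists by GC content as well. At 50% or more, CDS and 3'UTRs alike held more peaks per Mb in HL60/MX2. At 35 to 40% each held more in HL60. The CDS intervals overlapped there, at 162 (145 to 181) and 143 (127 to 161). CDS and 3'UTRs parted from 40 to 50%, where only CDS held more in HL60. Over all placed peaks, median GC was higher for the HL60/MX2 list (48.1%) than for the HL60 list (45.3%). The same order held within each mRNA class. At 40 to 45%, 3'UTRs held 48.5 peaks per Mb in HL60 as in HL60/MX2. In CDS of 50% GC or more there were 91.4 peaks per Mb (86.9 to 96.0) in HL60 and 105 (100 to 110) in HL60/MX2, and in CDS of 40 to 45% there were 199 (188 to 211) and 155 (145 to 166). At 45 to 50% the CDS held 210 (198 to 222) in HL60 and 176 (165 to 187) in HL60/MX2, while 3'UTRs of that class held 42.0 (35.9 to 48.9) and 47.5, with overlapping intervals. Cell line and library cannot be told apart here, with 1 library of each line.

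At the median, the peaks themselves were close in GC content to the 3'UTR around them, and slightly above it in HL60/MX2. Median GC content was 38.9% (38.4 to 39.5) in HL60 and 41.5% (40.8 to 42.2) in HL60/MX2. The difference between a peak and its own 3'UTR had a median of 0.05 percentage points (-0.30 to 0.35) in HL60 and 0.51 (0.21 to 0.89) in HL60/MX2. Peaks with a GC content of 50% or more made up 12.6% (10.9 to 14.5) of the 3'UTR peaks in HL60 and 20.8% (18.5 to 23.2) in HL60/MX2. CDS peaks had a median of 46.7% and 48.1%, and peaks around the stop codon 44.0% and 46.7%.

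**Figure D2:**
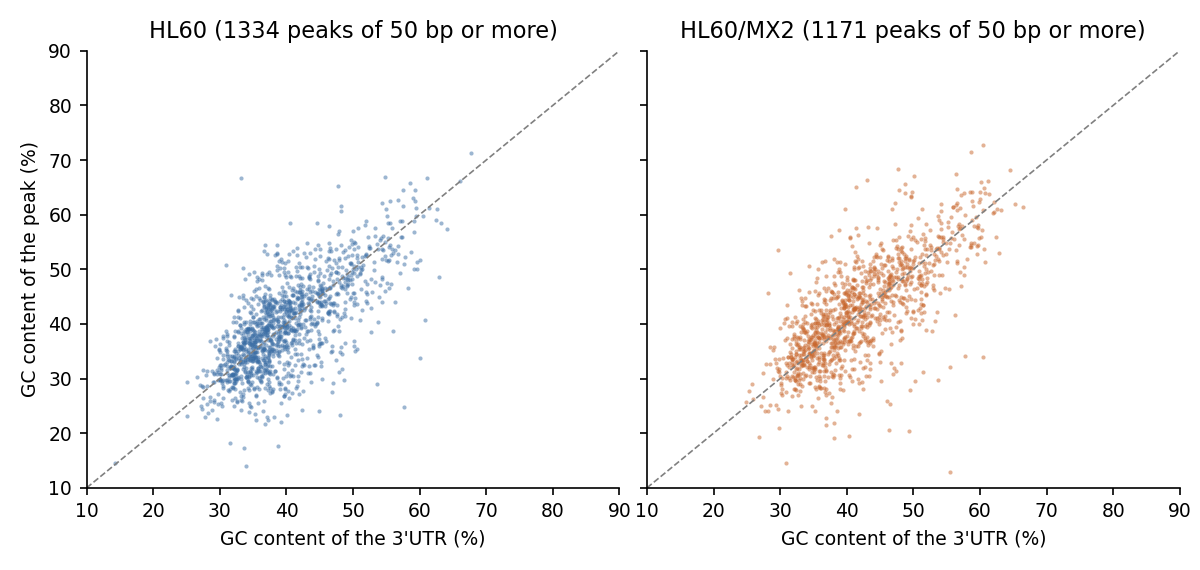
GC content of each 3'UTR peak of 50 bp or more (y axis, %) against that of the 3'UTR it lies in (x axis, %), for 1334 HL60 peaks (left) and 1171 HL60/MX2 peaks (right). The dashed line marks equal values, and the points lie around it on either side in both panels, with more points above 50% on each axis in HL60/MX2.

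Peaks lay along the whole 3'UTR. When the 3'UTR past the first 100 nt was cut into 5 parts of equal length, the first to the last held 19.2%, 18.2%, 20.5%, 18.3% and 23.9% of the peak midpoints in HL60. In HL60/MX2 they held 21.1%, 17.5%, 19.6%, 18.5% and 23.4%. The last part was above 20% in HL60 (21.7 to 26.2) and HL60/MX2 (21.01 to 25.9). In 3'UTRs of 1000 nt or more its share was 22.5% (20.1 to 25.0) and 22.3% (19.8 to 25.0), so that the lower bound in HL60/MX2 fell to 19.8%. For peaks of 50 bp or more its share was 21.6% (19.4 to 23.9) in HL60 and 22.3% (19.9 to 24.8) in HL60/MX2. Each of these intervals held 20%.

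The reading depends on which point of the peak is used. Placed by its 5′ end instead of its midpoint, 28.7% of the HL60 and 30.5% of the HL60/MX2 peaks fell in the first part and 17.7% and 15.9% in the last. In 3'UTRs over 4000 nt, where the size of a peak matters least, the first part held 23.2% (19.4 to 27.3) and 27.3% (23.0 to 32.0) of the midpoints and the last 20.6% (17.0 to 24.6) and 79 of 395 (16.2 to 24.3%). The interval of the first part stood above 20% in HL60/MX2 and held 20% in HL60.

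**Figure D3:**
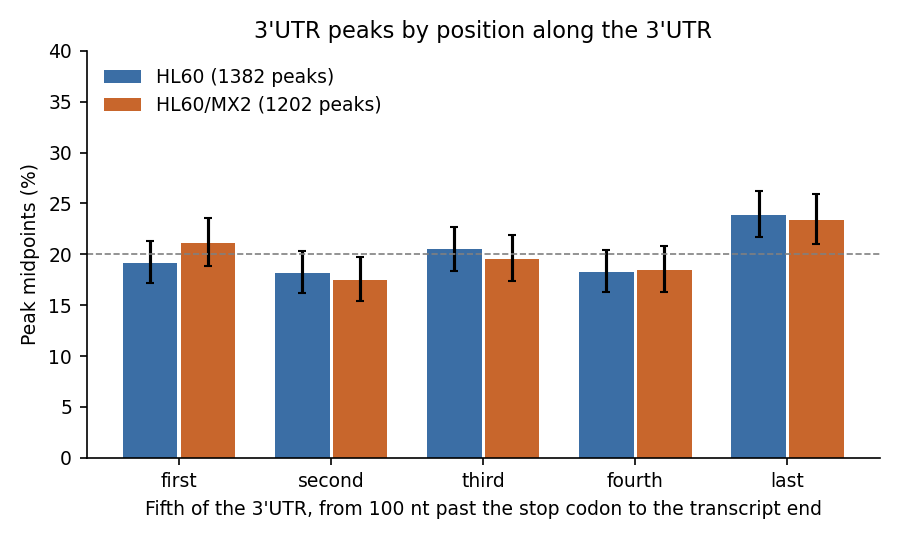
Share of 3'UTR peak midpoints (y axis, %) in 5 parts of equal length of the 3'UTR past the first 100 nt (x axis), with exact binomial 95% intervals, in HL60 (blue, 1382 peaks) and HL60/MX2 (orange, 1202 peaks). The dashed line marks 20%, the value of an even spread, and the last part stands above it at 23.9% and 23.4%.

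In distances, the median midpoint lay 1208.5 nt (1101 to 1290) past the stop codon in HL60 and 1128.5 nt (1048 to 1239) in HL60/MX2. The median distance to the annotated end of the transcript was 1090 nt (974 to 1201) and 1034.5 nt (938 to 1139). Midpoints over 4000 nt past the stop codon made up 10.5% and 10.1%. Next to the boundary of the class, 154 HL60 and 117 HL60/MX2 peaks began at or before the first base allowed, and 124 of 293 and 94 of 283 stop codon peaks reached past it.

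The annotated end of the transcript lay inside 203 HL60 peaks (14.7%, 12.9 to 16.7) and 166 HL60/MX2 peaks (13.8%, 11.9 to 15.9). Midpoints within 100 nt of the end made up 13.0% (11.2 to 14.8) and 11.1% (9.42 to 13.1), while 3.12% and 3.10% of the 3'UTR length of the same genes lies there. The midpoint was that of the part inside the transcript, which moves the midpoint of a peak running past the end toward it. The share of peaks that cover the end has no like length beside it, since a peak can reach the end from a start farther away. Peaks over the end were short, with a median length of 149 and 160 bp against 258 and 249.5 bp for the other 3'UTR peaks. They were also AU-rich, with a median GC content of 33.7% and 36.5% against 39.5% and 42.2%. In the last 50 nt of their transcripts, AATAAA was found in 69.0% (62.1 to 75.3) of the HL60 and 63.9% (56.0 to 71.2) of the HL60/MX2 cases, against 62.3% (61.6 to 63.1) of all genes. The stretches of ZSWIM9 and TLX1 printed above are such cases.

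The median score of 3'UTR peaks was close to that of all peaks of the same list. The score is the value that the authors deposited for a peak, its scale is not stated, and it was compared only within a list. The median was 189 (176 to 201) in HL60 against 197 (190 to 204) for all listed peaks, and 252 (235 to 273) in HL60/MX2 against 260 (252 to 267). Of the 3'UTR peaks, 8.32% (6.92 to 9.90) of HL60 and 7.49% (6.06 to 9.12) of HL60/MX2 stood among the highest 10.1% of scores of their list. Across the 3'UTR peaks the score had Spearman correlations between -0.03 and 0.05 with peak length, GC content, 3'UTR length and position (1382 and 1202 peaks), given as a description of peaks from 1 library each.

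**Figure D4:**
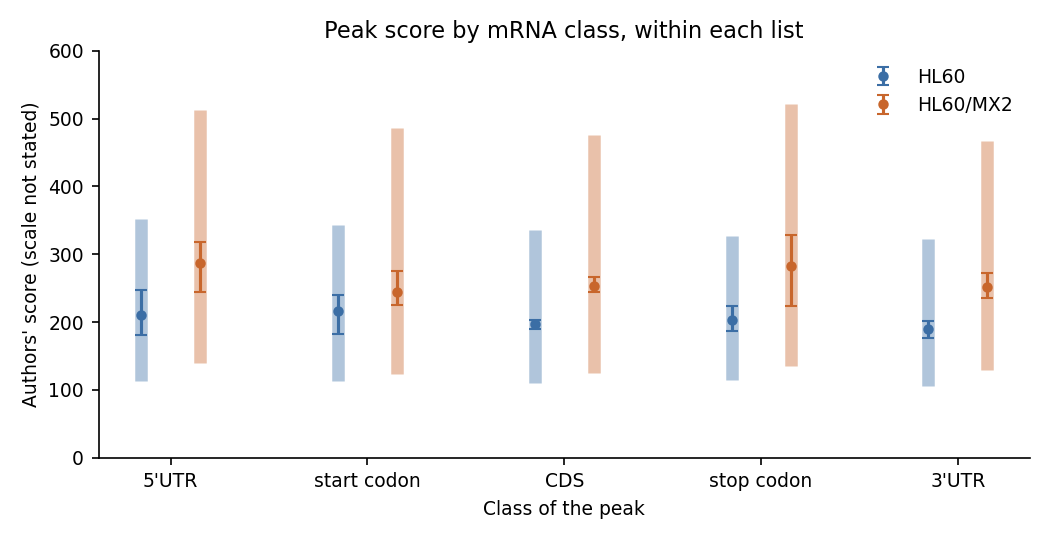
Median score of the peaks of each mRNA class (points, with 95% intervals as bars) and the middle 50% of scores (pale bands), within HL60 (blue) and within HL60/MX2 (orange). The 3'UTR median of 189 is the lowest of the 5 classes in HL60 with an interval that overlaps each of the others, that of 252 lies between those of other classes in HL60/MX2, and heights of the 2 lists cannot be compared since the scale is not stated.

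The highest scores of HL60 fell in 3'UTRs of genes with varied roles. ANKRD20A3 (1546), one of a family of near-identical ankyrin repeat genes whose reads may not be told apart, came first, with a 791 bp peak at chr9:43090073-43090863 in hg19. OR51E1, an olfactory receptor gene, followed with 1538 (chr11:4675578-4675872), midway along a 2005 nt 3'UTR. UBE2D1, a ubiquitin-conjugating enzyme, had 1391 at 50 nt from its transcript end. GPHA2, a glycoprotein hormone subunit, had 1191. IL31RA, a cytokine receptor chain, had 1120 with a midpoint 60 nt from the end of its 5730 nt 3'UTR.

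The next HL60 peaks by score were in PLCL1 (1053), a phospholipase C-like protein without catalytic activity, and TACR2 (1048), a tachykinin receptor. FGF12 (1047), a fibroblast growth factor homolog that stays in the cell, and FECH (1047), ferrochelatase, the last enzyme of heme synthesis, came after them. GRIK4, a kainate receptor subunit, had 1044 over a peak of 1502 bp, the longest of the HL60 3'UTR peaks. Of these 10, the PLCL1 and FECH peaks overlapped a peak of the HL60/MX2 list, by 382 and 203 bp.

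In HL60/MX2, 3 of the 53 peaks at the highest score of that list, 3100, were 3'UTR peaks. They lay in ANP32B, an acidic nuclear phosphoprotein (chr9:100777646-100778083), in TMEM178B, a transmembrane protein (chr7:141171319-141171614), and in ZSWIM9 (chr19:48700101-48700877). The ZSWIM9 peak of 777 bp covered nearly all of its 793 nt 3'UTR. C19orf84 had 2768, PRR20C, of a family of near-identical genes, 2541, and the growth factor gene FGF3 2172 over a stretch of 11 bp at its transcript end.

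TLX1, a homeobox gene known from T-cell leukemia, had 1912 at its transcript end, and RPH3A, a synaptic vesicle protein, had 1863. SPOUT1, of a family of RNA methyltransferases, had 1698, and SV2A, another synaptic vesicle protein, 1611. The TMEM178B, C19orf84 and SPOUT1 peaks overlapped HL60 peaks, whose scores of 137, 65.0 and 68.3 stood at percentiles 34.5, 8.17 and 9.08 of the HL60 list. A top score in HL60/MX2 was thus not a high score in HL60 for these 3 genes.

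Few 3'UTR peaks were listed at the same place in HL60 and HL60/MX2. Of the HL60 3'UTR peaks, 88 (6.37%, 5.14 to 7.79) had a base or more in common with an HL60/MX2 peak of the same strand, against 6.13% of all HL60 peaks. Of the HL60/MX2 3'UTR peaks, 80 (6.66%, 5.31 to 8.22) overlapped an HL60 peak, against 6.09% of that list. The share was thus near that of all peaks. With an overlap of 50% of each peak required it was 2.53% and 2.66%, against 3.52% and 3.5% of the lists. Within 100 bp it was 7.81% and 8.07%, against 6.75% and 6.7%.

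In 79 pairs, from 76 genes, the overlapping peaks of HL60 and HL60/MX2 were 3'UTR peaks in either list. Their overlap had a median of 193 bp (7 to 395), 13 pairs had a start or an end in common and 1 pair had both. Scores within pairs had a Spearman correlation of 0.06 over the 79 pairs, 24 pairs stood above the list median in HL60 and HL60/MX2, and 18 stood below it in each. Among the 346 HL60 3'UTR peaks with the highest scores 9.25% (6.41 to 12.8) were shared, against 5.78% (3.57 to 8.79) of the 346 with the lowest. In HL60/MX2 these shares were 8.88% (5.93 to 12.7) of 304 and 5.35% (3.09 to 8.54) of 299, and the intervals overlapped.

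The longest overlap, of 395 bp, lay in GPLD1, a phospholipase that releases GPI-anchored proteins (HL60 chr6:24428045-24428710, HL60/MX2 chr6:24427971-24428439). Its peak scored 574 in HL60, at percentile 92.1, and 76.7 in HL60/MX2, at percentile 9.84. SPOUT1 followed with 362 bp, in a place where exons of 2 genes overlap, with percentiles 9.08 and 98.2. GOLGA6L6 (351 bp), a golgin-like gene with near-identical copies, stood at 35.4 and 57.9. CEP85L (314 bp), a centrosomal protein, and CFAP141 (309 bp), a cilium-associated protein, stood at 80.0 and 76.0 and at 82.5 and 96.4. In GOLGA6L6, CEP85L and CFAP141 the HL60 and HL60/MX2 peaks began or stopped at the same base.

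CD93 (304 bp), a receptor of myeloid and endothelial cells, stood at percentile 26.5 in HL60 and 1.72 in HL60/MX2. The CD93 peaks of HL60 and HL60/MX2 likewise stopped at the same base. GPR161 (281 bp), a receptor of the cilium, stood at 91.8 and 94.7, and SHC3 (265 bp), an adaptor of receptor tyrosine kinases, at 80.0 and 82.7. The SHC3 peaks, at chr9:91620867-91621140 and chr9:91620875-91621139, had midpoints 7358 and 7355 nt past the stop codon. C19orf84 (262 bp) stood at 8.17 and 99.3, and KIAA0040 (259 bp) at 38.5 and 42.1. High percentiles in HL60 and in HL60/MX2 were held by CFAP141, GPR161 and SHC3, with CEP85L at 80.0 and 76.0.

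By gene, 239 of 2097 genes with a 3'UTR peak had one in each list, 992 had one in HL60 alone and 866 in HL60/MX2 alone. The 239 are 19.4% (17.2 to 21.7) of the HL60 genes, against 6.24% of all genes with a 3'UTR that carried an HL60/MX2 3'UTR peak. They are 21.6% (19.2 to 24.2) of the HL60/MX2 genes, against 6.95% for HL60 3'UTR peaks. The share moved with 3'UTR length. It rose from 4.60% (1.27 to 11.4) at 101 to 500 nt to 31.9% (27.1 to 36.9) over 4000 nt in HL60. The share of all genes in those classes with an HL60/MX2 3'UTR peak rose from 1.25% to 17.3%. Between midpoints, an HL60 3'UTR peak lay a median of 887 nt from the nearest HL60/MX2 peak of the same 3'UTR (297 peaks, middle 50% 294 to 1871 nt).

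A peak of any class was listed in the other line for 46.7% of the HL60 and 44.6% of the HL60/MX2 genes, against 30.3% and 28.1% of all genes with a 3'UTR over 100 nt. For 53.3% and 55.4% there was none. A gene with a 3'UTR peak mostly had 1 of them, in 89.8% of 1231 HL60 genes and 91.9% of 1105 HL60/MX2 genes, and 443 and 336 of them (30.4% in HL60/MX2) had a listed peak outside the class as well. Neighbouring 3'UTR peaks of 1 gene lay a median of 1418 nt apart in HL60 (151 gaps) and 1799 nt in HL60/MX2 (97 gaps).

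**Figure D5:**
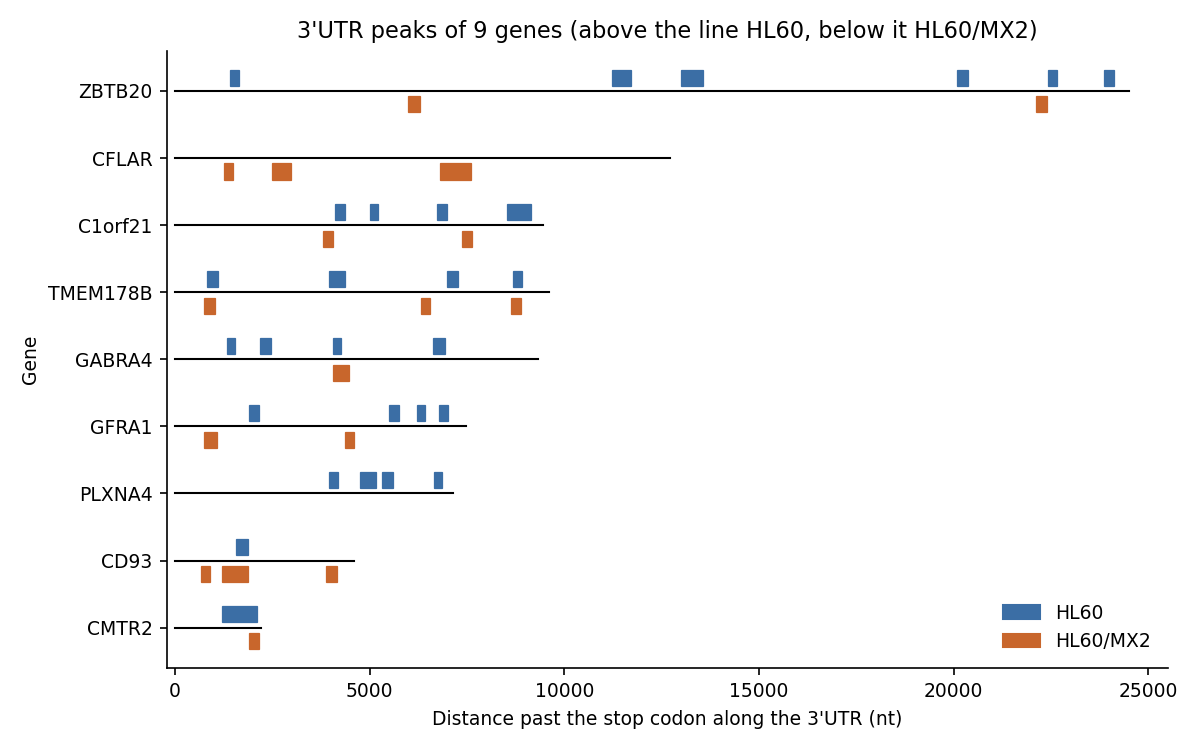
Positions of 3'UTR peaks along the 3'UTR of 9 genes (y axis), in nt past the stop codon (x axis). The black line is the annotated 3'UTR, blue boxes above it are HL60 peaks and orange boxes below it HL60/MX2 peaks. The 6 HL60 and 2 HL60/MX2 peaks of ZBTB20 do not overlap, and TMEM178B has an overlap near each end.

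ZBTB20, a zinc finger repressor, had the most 3'UTR peaks, with 6 in HL60 and 2 in HL60/MX2 along a 3'UTR of 24505 nt. The HL60 midpoints lay 1533, 11463, 13278, 20226, 22532 and 23988 nt past the stop codon, with scores of 394, 217, 146, 85.1, 125 and 302. The HL60/MX2 midpoints lay at 6139 and 22253 nt with scores of 492 and 1298, and no HL60 peak overlapped them. TMEM178B had 4 HL60 peaks, at 960, 4157, 7126 and 8798 nt, and 3 HL60/MX2 peaks, at 880, 6427 and 8759 nt. The first and last of these overlapped by 208 and 199 bp.

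In HL60, 6 genes had more than 3 such peaks. Besides ZBTB20 and TMEM178B they were C1orf21, GABRA4, a GABA-A receptor subunit, GFRA1, a receptor of the growth factor GDNF, and PLXNA4, a semaphorin receptor, with 4 each. The PLXNA4 peaks lay between 4072 and 6757 nt of a 7138 nt 3'UTR and HL60/MX2 had none there. The GABRA4 peaks lay at 1444, 2329, 4159 and 6777 nt, of which the third overlapped the only HL60/MX2 peak there, by 193 bp. Genes with 3 peaks numbered 11, and taken in alphabetical order the first were ACADSB, an acyl-CoA dehydrogenase, CREB5, a transcription factor, KCNQ3, a potassium channel, and KITLG, the ligand of the KIT receptor. The 3 peaks of KITLG lay at 168, 1812 and 4055 nt of its 4426 nt 3'UTR, with scores of 65.0, 219 and 137. HL60/MX2 had no KITLG peak of the 3'UTR class. The first HL60 peak overlapped an HL60/MX2 peak of the stop codon class by 21 bp. That HL60/MX2 peak scored 513, at percentile 77.5 of its list.

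In HL60/MX2 no gene had more than 3, and 8 had 3. CFLAR, which encodes the caspase-8 inhibitor c-FLIP, had peaks at 1365, 2728 and 7210 nt of a 12714 nt 3'UTR, with scores of 83.3, 1423 and 108, and no HL60 3'UTR peak. The CFLAR peak at chr2:202031173-202031676 had a GC content of 66.3% in a 3'UTR of 43.1%. CD93 had peaks at 781, 1534 and 4007 nt, of which the second was the one shared with HL60. The others were B3GALT5, a galactosyltransferase, KCNN3, a calcium-activated potassium channel, PEX5L, ZNF264, ZNF704 and TMEM178B. KCNN3 held the longest 3'UTR peak of HL60/MX2, of 1216 bp.

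The 5 longest 3'UTRs with a peak were those of FLRT2 (30931 nt), GRIN2B (25446 nt), ZBTB20 (24505 nt), SH3TC2 (22561 nt) and LRRC7 (22477 nt). FLRT2, an adhesion protein, had 1 HL60 peak 1283 nt past the stop codon with a score of 677. GRIN2B, an NMDA receptor subunit, had 1 HL60/MX2 peak 224 nt past it with a score of 607, and LRRC7, a postsynaptic protein, had 1 HL60 peak at 1179 nt with 456. These 3 genes carried their peak in the first 5% of the 3'UTR past its first 100 nt. SH3TC2, known from a hereditary neuropathy, had HL60 peaks at 2785, 9713 and 19134 nt and an HL60/MX2 peak at 2711 nt, which overlapped the first by 191 bp.

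Lists of genes with roles near the mark, the 3'UTR or the cell lines held few 3'UTR peaks. Over all genes, 6.95% carried one in HL60 and 6.24% in HL60/MX2. Of 20 genes of m7G and cap synthesis or binding, 3 carried one in HL60 (15.0%, 3.21 to 37.9) and 1 in HL60/MX2 (5.00%, 0.13 to 24.9). CMTR2, the methyltransferase of the second transcribed nucleotide, had peaks in HL60 (chr16:71315411-71316302, score 527) and HL60/MX2 (chr16:71315359-71315613, score 555), with 203 bp in common. NCBP1, the large subunit of the nuclear cap-binding complex, scored 97.1 and RNGTT, the capping enzyme, 99.4, in HL60 alone. More than 3 in 4 of the HL60 scores were higher.

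Of 20 genes of mRNA 3' end processing, PAPOLG, a poly(A) polymerase, carried peaks in HL60, at 222, 2259 and 3419 nt of its 4926 nt 3'UTR. HL60/MX2 had none in this list, and 0 of 20 genes allows a share of up to 15.0%. Of 43 genes of proteins that bind 3'UTRs or degrade mRNA, 0 carried a peak in HL60, which allows up to 6.98%, and 3 did in HL60/MX2 (6.98%, 1.46 to 19.1). They were AGO1, an Argonaute protein (score 55.7), CPEB4, a regulator of cytoplasmic polyadenylation (531), and RC3H1, the mRNA decay factor Roquin-1 (64.7).

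Of 33 genes often mutated in AML, 2 carried a peak in HL60 (PHF6, score 311, and WT1, 170) and 2 in HL60/MX2 (JAK2, 202, and NF1, 191). Of 32 myeloid genes, CSF2RA, a GM-CSF receptor chain, and DEFA4, a neutrophil defensin, carried one in HL60. The CSF2RA peak was a stretch of 4 bp listed on chromosome Y (chrY:1378825-1378828). Of 46 ABC transporters with a 3'UTR over 100 nt, which pump drugs, lipids and other molecules across membranes, ABCA5 (85.1) and ABCC4 (171) carried one in HL60 and ABCA1 (124) in HL60/MX2. None of these 3 had one in the other line, and the drug pumps ABCB1, ABCC1 and ABCG2 had none.

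Of 28 genes of mitoxantrone targets and DNA damage, ERCC6, a factor of transcription-coupled repair, carried one in HL60 (421), and 0 did so in HL60/MX2, which allows up to 10.7%. Among 31 apoptosis genes, those with one included BBC3, which encodes PUMA (51.4), in HL60 and CFLAR in HL60/MX2. With so few genes, the intervals of every list held the share of all genes, 6.95% and 6.24%.

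Short motifs were looked for, in the sense direction alone, in the 100 nt around the midpoint of 1282 HL60 and 1120 HL60/MX2 peaks of that size. GGAAA or GGAAG was present in 26.4% (23.97 to 28.9) and 26.8% (24.2 to 29.5), against 25.9% of 284646 consecutive windows of the same length from all 3'UTRs. In windows from the genes with peaks it was 27.0% and 26.9%, while CDS peaks held it in 38.4% and 36.8%. Windows of all CDS were not counted, so the shares of CDS peaks have no background. At least 1 of 4 pentamers (CTGGA, or CTG followed by GG, TA or TG) was present in 44.1% (41.3 to 46.8) and 47.1% (44.1 to 50.03), against 47.6% of all windows and 43.9% and 45.9% of those from the same genes. A window can hold several of these, and each window was counted once.

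AATAAA was present in 9.44% (7.89 to 11.2) of the HL60 and 9.82% (8.14 to 11.7) of the HL60/MX2 windows, against 8.06% of all windows and 8.51% and 7.99% of those from the same genes. The lower bound in HL60/MX2 lay just above the share of all windows, but in 150 nt windows its interval (12.8%, 10.9 to 15.0) held the 11.6% of all such windows. The AU-rich element core ATTTA was present in 21.2% (19.0 to 23.6) and 17.2% (15.1 to 19.6), against 18.4% of all windows and 20.6% and 18.3% of those from the same genes. The HL60 interval lay above the first of these and held the second. The Pumilio motif (TGTA, any base, ATA) was present in 2.81% (1.97 to 3.87) and 2.23% (1.45 to 3.28), against 2.01%. ACTAAC, the core bound by Quaking, was present in 1.40% (0.83 to 2.21) and 0.98% (0.49 to 1.75), against 1.21%.

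Matches to the seed (bases 2 to 8) of 7 microRNAs known from blood cells or the p53 response were rare in the same windows. Each of the 7 intervals held the share of all windows in HL60/MX2, and in HL60 the interval of miR-155-5p, 1.25% (0.72 to 2.02), lay just above the 0.69% of all windows and held the 0.83% of the same genes. In 150 nt windows its interval, 1.39% (0.81 to 2.21), held the 1.06% of all windows. Mature sequences from RefSeq are printed for 2 of them, with the seed in capitals, followed by a match inside a peak, also in capitals. The matches lie in hg19 at chr6:4955556-4955585 and chr6:4955495-4955524 (CDYL, plus strand, HL60) and chr1:183218055-183218084 (NMNAT2, minus strand, HL60/MX2), and were picked by the scores of their peaks.
hsa-miR-223-3p: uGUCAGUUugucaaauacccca
CDYL: tttatacttagAACTGACcacctccccggc
NMNAT2: tactctcctcaAACTGACacacacacacac
hsa-miR-181a-5p: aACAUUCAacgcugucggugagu
CDYL: tgcaatcatatTGAATGTatgaagagcgaa

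CDYL, a chromodomain protein, held the matches to miR-223-3p and miR-181a-5p in 1 HL60 peak (score 739). A match is a run of letters and was not tested as a site.

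As point values, the density of 3'UTR peaks had a wider range between chromosomes in HL60 than in HL60/MX2. The extremes rest on few peaks, and the density of all listed peaks by chromosome was not computed here. It ranged from 23.7 to 77.6 peaks per Mb of 3'UTR over the autosomes for the HL60 list, and from 27.5 to 57.5 for that of HL60/MX2. Chromosome 18 held 77.6 (57.6 to 102; 50 peaks) in HL60 and 38.8 (25.1 to 57.3; 25 peaks) in HL60/MX2. Chromosome 4 held 71.0 (57.0 to 87.3) and 38.3 (28.2 to 50.7), and chromosome 10 held 65.2 (51.6 to 81.3) and 37.1 (27.1 to 49.7). Chromosome 22, which is rich in GC, held 23.7 (12.9 to 39.7; 14 peaks) and 57.5 (39.8 to 80.4; 34 peaks), and chromosome 19 held 45.1 and 47.3.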

How the data were processed

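Members, gene lists and motifs were chosen with earlier results of these data known. To make the lists, the authors ran Cutadapt 1.9.3 on paired-end reads, Hisat2 2.0.4 against hg19 and MACS (version and settings not given in the sources used here), and retained exonic peaks of protein-coding genes. The submitters' processing notes also name STAR. The deposited value of a peak is a score of unstated scale. Depth is unknown, since no read counts were used, and precision is limited by how many peaks there are.

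Starts were converted to count from 1. Genes and transcripts came from GENCODE release 44 on hg19 (20163 protein-coding genes, the mitochondrial chromosome left out), and the longest coding transcript was that with the longest CDS. Largest overlap decided the class. The 100 nt on either side of a start or stop codon formed separate classes. In HL60, 330 peaks lay over no such exon and 1157 off the chosen transcript, and in HL60/MX2 318 and 1192. GRCh37 was the genome (chromosome 1 of 249250621 bp). MicroRNA sequences came from RefSeq (GRCh38.p14) and all 7 matched.

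Shares carry exact Clopper-Pearson, densities exact Poisson and medians order-statistic 95% intervals. A count of 0 was taken to allow up to 3. Neither line has a replicate, so nothing was tested between them. The genes named were the 10 highest scores and up to 10 genes with the most members per list (ties in alphabetical order), the 10 longest overlaps, the 5 longest 3'UTRs and up to 10 genes of each gene list. Some of the genes these rules name are not reported here. Gene families by symbol were added after the names were seen. Alternatives covered the transcript, class rule, stop codon margin, peak length, score, overlap, position and motif windows. Classification and overlaps were tested on 1000 simulated windows. The steps used Python 3.11.15, numpy 2.4.6, scipy 1.17.1 and matplotlib 3.10.9.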

Additional observations from a re-analysis of the deposited data

Results flagged for a closer look

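Peaks off the longest coding transcript belong to no class above. Of 1157 such HL60 peaks, 351 (30.3%, exact interval 27.7 to 33.1) lay in the 3'UTR of another coding transcript of their gene. In HL60/MX2 this held for 324 of 1192 (27.2%, 24.7 to 29.8). They were picked up because they are a signal in data that the comparisons did not use, and the 1382 and 1202 peaks described above therefore leave out peaks that lie in a 3'UTR only in another isoform.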

How the results depend on the processing

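No paired analysis was possible because each line has 1 enriched library, and no replicate could be left out. Of 136 alternative values, 97 stayed within the interval of the reported value or, for counts, within 1.5 times of it. The share of placed peaks that were 3'UTR peaks was 23.4% (HL60) and 20.4% (HL60/MX2) with the transcript of longest spliced length, 22.9% and 19.7% with the Ensembl canonical transcript, 23.2% and 20.05% with no margin past the stop codon, 19.1% and 16.8% with a margin of 200 nt, and 24.5% and 21.1% for peaks of 50 bp or more. HL60 stayed above HL60/MX2 in each of these. Scores at or above the list median left 674 and 591 peaks, 23.0 and 20.2 per Mb, in 635 and 568 genes with 83 in both lines, which is 13.1% and 14.6% of them. Position by the 5′ end gave 28.7% and 30.5% in the first part and 17.7% and 15.9% in the last. For peaks of 50 bp or more the last part held 21.6% (19.4 to 23.9) in HL60, an interval that held 20%. With no margin the median 3'UTR length was 2679.5 and 2623.5 nt. In the 100 nt around the midpoint, median GC was 38% in HL60 and differed from the own 3'UTR by -0.45 and 0.97 percentage points. Shared peaks numbered 35 and 32 (2.53% and 2.66%) with 50% of both required, made up 7.81% in HL60 within 100 bp, and numbered 27 and 24 (4.01% and 4.06%) for scores at or above the median in both lists. In HL60, the 4 pentamers beginning with CTG were less frequent in peaks than in all windows, by -3.48 percentage points, and 0.19 more frequent than in windows of the same genes. The cause of these moves was not tested, beyond the smaller number of peaks that the score and overlap limits leave. The canonical transcript for position, 3'UTR length and GC was chosen after seeing the data. Depth could not be weighed.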

Other observations

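Families of genes that share a symbol stem were chosen after the names of the genes were seen, and not all of them are given here. Of those given, only the olfactory receptor genes had intervals that excluded the density of all genes. The 18 ionotropic glutamate receptor genes, which encode the channels of excitatory synapses, held 110 peaks per Mb of 3'UTR (44.4 to 227; 7 peaks in 6 genes) in HL60 and 63.0 (17.2 to 161; 4 peaks in 4 genes) in HL60/MX2. GRIK2 and GRIN2A carried a peak in each line, those with one in HL60 alone included GRIA4, GRIK4 and GRIN3A, and those in HL60/MX2 alone were GRIA1 and GRIN2B. The 88 potassium channel and accessory subunit genes with the stem KCN held 69.1 (40.3 to 111) and 61.0 (34.1 to 101). KCNK10, KCNQ3 and KCNS2 carried a peak in each line.

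The 491 zinc finger genes with the stem ZNF held 43.8 (32.2 to 58.2) in HL60 and 29.8 (20.4 to 42.1) in HL60/MX2. These peaks lay in 39 and 27 genes, of which 7 were the same. Among all genes with a 3'UTR peak, 239 of 1231 in HL60 (19.4%) and of 1105 in HL60/MX2 (21.6%) were the same. The 325 solute carrier genes, which move small molecules across membranes, held 52.0 (35.1 to 74.2) and 58.9 (40.8 to 82.3). The 187 olfactory receptor genes held 7.36 (1.52 to 21.5) and 4.91 (0.59 to 17.7), with OR51E1 and OR9Q1 in HL60 and OR13A1 and OR2C3 in HL60/MX2. All genes held 47.1 and 41.0 peaks per Mb. The intervals of the olfactory receptor genes lay below these values, and those of the other 4 families held them.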
